A study of Mus musculus with 2 samples.

Results

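Integrin chains of niche adhesion and homing were followed through 26 probe sets of 10 genes, out of 45037 probe sets and 18193 named genes on the array. They were chosen as all probe sets whose only gene symbol in the platform's annotation was Itga2, Itga4, Itga5, Itga6, Itga9, Itgal, Itgam, Itgb1, Itgb2 or Itgb7. Total RNA of mouse haematopoietic stem cells was measured on 1 Affymetrix array for Wip1 knock-out animals and 1 array for wild-type animals, all aged 3 months. The sources used here do not give the strain, the sort, the number and sex of the animals or the design of the knockout allele. With 1 array per genotype no test was possible, no p-value is given, and the number of arrays limits the precision. A difference cannot be told apart from one between any 2 stem cell preparations. In a bulk sample, more cells of a type and more RNA per cell cannot be told apart either.

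Integrins are surface receptors built of 1 alpha and 1 beta chain, which join the cytoskeleton to matrix proteins or to counter-receptors on other cells. Signals inside the cell switch them to their binding form through talin and kindlin. On blood stem cells, alpha4 beta1 is known for holding the cells in the marrow and for homing after transplantation, through the vascular adhesion molecule Vcam1 and fibronectin. The beta2 integrins bind intercellular adhesion molecules and are restricted to blood cells.

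Before the integrins, the arrays were checked against their labels. All 15 measured genes of the stem cell list, among them Kit, Procr, Mecom, Hlf and Fgd5, lay above the floor. The floor is the median of all probe sets of an array, 25.9 on the knockout array and 25.2 on the wild-type array. Of the 15, 13 lay above the 75th percentile (113 and 111). In the knockout 9 were higher and 6 lower, with a median log2 difference of 0.08. Hlf was at least 1.5-fold higher (0.70), against 2.33% of all genes. Slamf1 (-0.66) and Tek (-0.59) were at least 1.5-fold lower, against 1.55%. The 15 also include Cd34 (2025 in the knockout against 1512 in the wild type) and Cd48 (1522 against 1275). Neither marks mouse long-term stem cells, and both are among the 9 that were higher. The count therefore does not separate stem cells from early progenitors. A gene above the floor need not be expressed, since 12 of 45 genes specific to other tissues (26.7%) also lay above it on at least 1 array, against 62.9% of all genes. The targeted gene Ppm1d, which encodes Wip1, had intensities of 160 and 59.0 on the knockout array against 167 and 55.6 on the wild-type array in its 2 probe sets. Their place relative to the deleted part is unknown here, and they may not check the genotype. The Y-linked Eif2s3y was 149 on the knockout array against 31.8 on the wild-type array, and Xist was 3778 against 6228 in its brightest probe set, so the samples also differed in sex-dependent RNAs.

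The promoters of 3 members are shown because one belongs to the integrin with the largest difference (Itgam), one to a gene that was higher in several probe sets (Itga4) and one to the shared beta chain that differed least among the beta chains (Itgb1). Each is the 250 bases before the RefSeq start on GRCm38.p6, plus strand, from 5′ to 3′. Capitals mark GAGGAA, the core letters bound by the myeloid factor PU.1, and TGTGGT, the core letters bound by RUNX factors, each read on both strands (TTCCTC and ACCACA on the other).
Itgam chr7:128062390-128062639: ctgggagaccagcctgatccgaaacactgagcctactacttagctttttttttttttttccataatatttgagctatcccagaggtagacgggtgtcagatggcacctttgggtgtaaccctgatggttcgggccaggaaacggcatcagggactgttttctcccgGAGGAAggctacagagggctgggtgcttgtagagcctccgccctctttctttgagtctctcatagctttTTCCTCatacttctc
Itga4 chr2:79255176-79255425: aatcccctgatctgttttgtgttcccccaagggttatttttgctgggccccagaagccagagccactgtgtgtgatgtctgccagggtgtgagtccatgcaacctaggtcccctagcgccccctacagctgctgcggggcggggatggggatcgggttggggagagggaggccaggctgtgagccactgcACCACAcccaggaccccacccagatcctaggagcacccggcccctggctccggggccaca
Itgb1 chr8:128685404-128685653: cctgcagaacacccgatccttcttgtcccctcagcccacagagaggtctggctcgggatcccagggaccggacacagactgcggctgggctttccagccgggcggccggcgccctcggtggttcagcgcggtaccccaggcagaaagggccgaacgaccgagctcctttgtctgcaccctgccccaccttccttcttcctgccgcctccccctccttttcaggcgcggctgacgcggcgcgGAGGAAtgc

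The Itgam promoter held the PU.1 letters at 2 places, beginning 84 and 15 bases before the start. The Itgb1 promoter held them once, beginning 9 bases before the start, and the Itga4 promoter held the RUNX letters once, beginning 60 bases before it. GAGGAA was found in 23.3% and TGTGGT in 14% of 32851 promoters of the same length, and in 3 and 1 of 7 windows matched to members. Itga2 held neither, and Itga5 held GAGGAA. The windows of Itga9 and Itgb7, which held neither, belong to starts inside those genes as RefSeq bounds them. Promoters of Itga6, Itgal and Itgb2 are not shown. In human myeloid cells PU.1 is known to bind the ITGAM promoter, but a letter match here is a description and not a site.

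By at least 1 probe set, transcripts for most of these chains were above the floor in both stem cell samples. Of the 26 probe sets, 13 lay above it on both arrays, 5 on 1 array and 8 on neither. The 13 belonged to 9 genes, all but Itga2. On the knockout array 15 of the 26 probe sets passed the floor, and on the wild-type array 16. Of all 34945 probe sets of 1 gene, 19291 and 19373 did. On at least 1 array 69.2% of the 26 passed it, against 57.0% of all probe sets of 1 gene. The share of all probe sets above it on both arrays was not counted. Itga4, Itga6, Itgal, Itgb1 and Itgb2 had at least 1 probe set above the 75th percentile on both arrays. On each array 8 of the 26 probe sets lay above it. Of all 34945 probe sets of 1 gene, 10196 did on the knockout array and 10279 on the wild-type array. Joined into known receptors, 7 of 8 pairs had both chains above the floor on both arrays by the brightest probe set. The exception was the collagen receptor alpha2 beta1. The pairs share chains and are not separate results, and the share among other gene pairs was not counted. In 3 pairs both chains lay above the 75th percentile, namely alpha4 beta1, the laminin receptor alpha6 beta1 and the leukocyte integrin alphaL beta2. Intensities of different probe sets depend on their oligonucleotides, so they give no order of abundance among the chains.

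**Figure D1:**
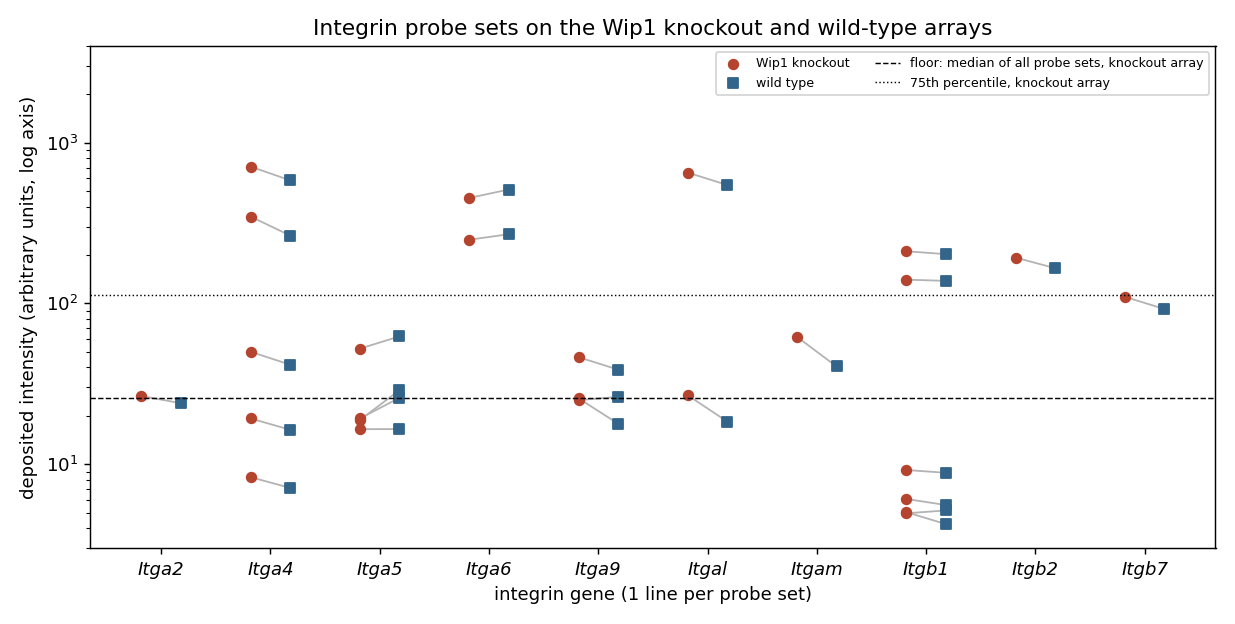
Deposited intensity (arbitrary units, log axis) of each of the 26 integrin probe sets on the Wip1 knockout array (circles) and the wild-type array (squares), with a line joining the values of a probe set. Itga4, Itga6, Itgal, Itgb1 and Itgb2 reach above the 75th percentile, while the single Itga2 probe set sits at the floor, with 26.6 in the knockout and 24.0 in the wild type.

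Itga4 encodes the alpha4 chain, which pairs with beta1 or beta7. Its 3 probe sets above the floor had intensities of 710, 347 and 50.0 on the knockout array, against 584, 265 and 41.6 on the wild-type array. All 3 read higher in the knockout. The log2 differences (knockout minus wild type, arrays centred on each other) were 0.30, 0.40 and 0.28, or 1.23-, 1.32- and 1.21-fold. Each exceeded the scatter of probe sets that share a gene. Its SD was 0.22 on the log2 scale over 5043 genes, and it includes no variation between animals or arrays. The differences of all probe sets had a wider SD of 0.287, which the Itga4 probe set at 0.28 did not exceed. The other 2 probe sets of Itga4 lay under the floor on both arrays (8.30 and 19.2 on the knockout array, 7.12 and 16.4 on the wild-type array).

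Itgb7, the beta chain that joins alpha4 to bind the mucosal addressin Madcam1, had an intensity of 110 in the knockout against 92.4 in the wild type, a log2 difference of 0.26 by its only probe set. Both chains of alpha4 beta7 were thus higher in the knockout sample by similar amounts. Itgb1, the chain shared by the matrix receptors, differed less. Its 2 probe sets above the floor read 141 and 211 on the knockout array, against 138 and 203 for wild type. The log2 differences of 0.04 and 0.07 were within the SD between probe sets. The other 4 probe sets of Itgb1 lay between 4.95 and 9.20 in the knockout and between 4.24 and 8.84 in the wild type, well under the floor.

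The remaining partners of beta1 went both ways. Itga6, the laminin-binding chain known as CD49f, read 249 on the knockout array and 269 on the wild-type array in one probe set, and 454 and 511 in the other. Both of its probe sets were lower in the knockout, by log2 differences of -0.10 and -0.16 that were within the SD between probe sets. Itga5, the classical fibronectin receptor chain, had 1 probe set above the floor on both arrays, with 52.4 in the knockout against 62.4 in the wild type and a log2 difference of -0.24.

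A second Itga5 probe set was under the floor in the knockout (18.8 against 28.8) and at least 1.11-fold lower there. Another read 19.3 in the knockout against 25.9 in the wild type, too near the floor for a bound, and the last was under the floor on both arrays (16.5 on each). All 3 that passed the floor read lower in the knockout. Itga9, which binds tenascin and osteopontin, read 46.3 in the knockout against 38.8 in the wild type in its brightest probe set, a log2 difference of 0.27.

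The other Itga9 probe sets were at the floor, with 25.1 and 25.7 on the knockout array, 26.2 and 17.9 on the wild-type array. Itga2, the collagen-binding chain CD49b, is used to divide mouse stem cells with longer and shorter self-renewal. Its only probe set read 26.6 in the knockout and 24.0 in the wild type, where it was under the floor. These values bound the difference at 0.09 or more on the log2 scale, which shows little because neither array measured Itga2 clearly.

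The blood-restricted beta2 integrins were higher in the knockout in each of their 4 probe sets. Itgb2, the beta chain CD18, read 193 in the knockout against 166 in the wild type, a log2 difference of 0.23. Itgal, which encodes the alpha chain of LFA-1, read 651 in the knockout against 546 in the wild type, a log2 difference of 0.27. Its second probe set read 26.8 in the knockout and lay under the floor in the wild type at 18.4, at least 1.07-fold higher.

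Itgam encodes CD11b, the alpha chain of Mac-1 and a marker of granulocytes and macrophages that is commonly used to remove mature cells before stem cells are sorted. Its only probe set read 61.9 in the knockout against 40.6 in the wild type, 1.54-fold higher (0.62 on the log2 scale). It was the only one of the 17 integrin probe sets with a difference that was at least 1.5-fold higher, against 3.08% of 19778 probe sets, and none was at least 1.5-fold lower, against 1.47%. A count of 1 in 17 is near that background. Among 4229 probe sets of an intensity within 0.5 log2 units of Itgam, 4.71% were at least 1.5-fold higher. Itgam lay just past that size, and it no longer did after quantile normalization (0.56), with the floor added as an offset (0.42) or when the floor was raised to the 75th percentile. The integrin nearest to that size on the other side was Itga4, at 0.40.

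**Figure D2:**
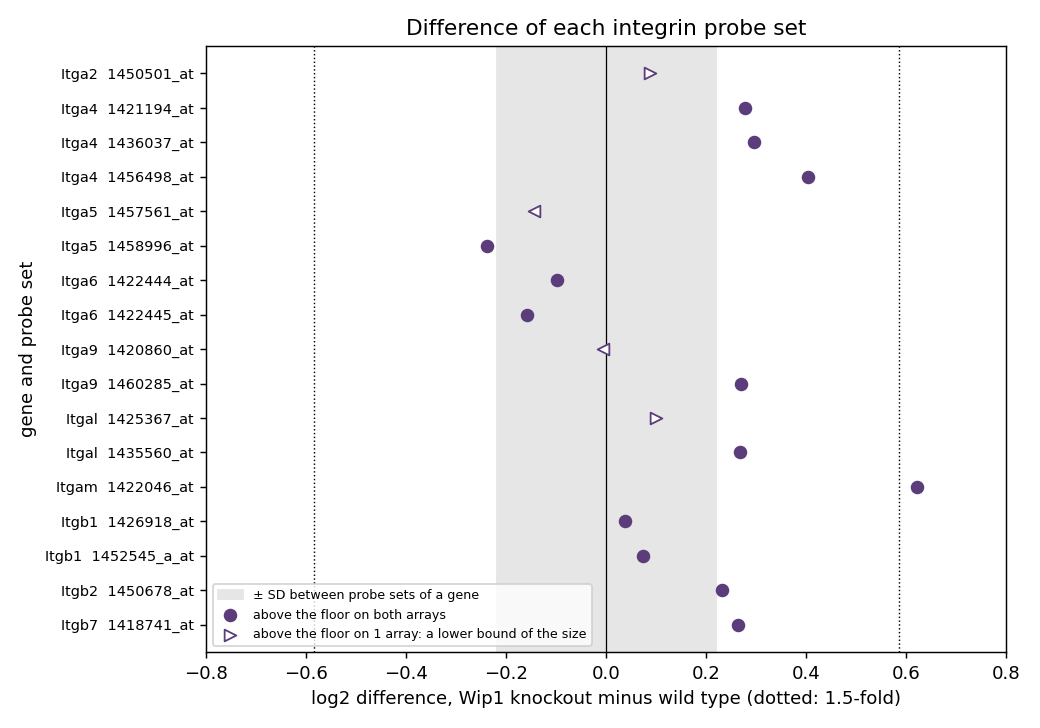
Log2 difference (Wip1 knockout minus wild type) of the 17 integrin probe sets for which a difference could be given. Itgam at 0.62 is the only one past the dotted 1.5-fold lines, the 3 Itga4 probe sets lie between 0.28 and 0.40, and the probe sets of Itgb1 and Itga6 lie inside the grey band of 0.22, the SD between probe sets of a gene.

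Markers of myeloid cells did not move as one with Itgam. Of 20 myeloid markers above the floor, 8 were higher and 12 lower in the knockout, with a median of -0.02. Their summed intensity was 17537 in the knockout against 19013 in the wild type, but 13872 against 13515 without Mpo, the brightest. Of these, 4 were at least 1.5-fold higher, against 2.33% of all genes, namely Csf1r (1.40), Ly86 (0.99), Fcgr3 (0.87) and Irf8 (0.77), genes of monocytes, macrophages and dendritic cells. Ms4a3, a gene of granulocyte progenitors, was the only one at least 1.5-fold lower (-0.72), against 1.55% of all genes. Other granulocyte genes of the list did not move as one. Myeloperoxidase (Mpo, -0.57), neutrophil elastase (Elane, -0.48), Prtn3 (-0.26) and Camp (-0.26) read lower, and Ctsg (0.27) and Ltf (0.11) higher. S100a8, S100a9, Ngp, Fcnb and Csf3r lay between -0.10 and -0.01. Nor did all genes of monocytes and macrophages rise, with Lyz2 at -0.002, Cd14 at -0.04, Cybb at 0.18 and Cd68 at 0.22. The 3 probe sets of Csf1r ran from 0.35 to 1.40. The macrophage marker Adgre1 was under the floor on both arrays. The part of myeloid cells in the Itgam difference was not tested.

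Lymphoid markers differed as well, with 11 higher and 3 lower, a median of 0.27 (0.53 over 5 genes with the floor raised to the 75th percentile). Their summed intensity was 6996 in the knockout against 3363 in the wild type, and 1504 against 1135 without Dntt, the brightest. Il7r (1.33) and Dntt (1.31) were at least 1.5-fold higher, against 2.33% of all genes. Alpha4, alphaL and beta7 are also carried by lymphoid cells, and the part of such cells in their differences was not tested. Among T and natural killer cell genes, Cd3d, Cd3g, Cd2 and Ncr1 were under the floor on both arrays, while Cd3e (-0.21), Cd4 (0.02), Cd8a (-0.18) and Klrd1 (0.52) lay above it on both. Gzmb passed it in the wild type alone (18.8 in the knockout against 26.0 in the wild type).

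By brightest probe set, 8 of the 10 integrin genes were higher and 2 lower in the knockout, with a median of 0.25. Over all 11388 genes with a difference, 49.8% were higher and the median was -0.0014. The median of the integrins was 0.16 when each gene was taken as the median of its probe sets. Across the 17 probe sets, 12 were higher and 5 lower, where 50.3% of all probe sets were higher. Of the 17, 9 exceeded the SD between probe sets. Of all probe sets with a difference, 66.7% differed by less than the Itgb2 probe set at 0.23, just past that SD. The SD was 0.186 among probe sets above the 75th percentile and 0.240 among dimmer ones. The dim Itga5 probe set at -0.238 does not exceed the latter. Of 6 genes with several probe sets that gave a difference, 5 kept one sign in all, and Itga9 did not. How often other genes keep one sign was not counted. In Itga5 (-0.14), Itgal (0.10) and Itga9 (-0.006) the dimmer probe set gave only a bound, with 1 array under the floor. Of all probe sets with a difference, 96.1% differed by less than Itgam, 88.1% by less than the Itga4 probe set at 0.40 and 77.3% by less than the brightest Itga4 probe set.

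**Figure D3:**
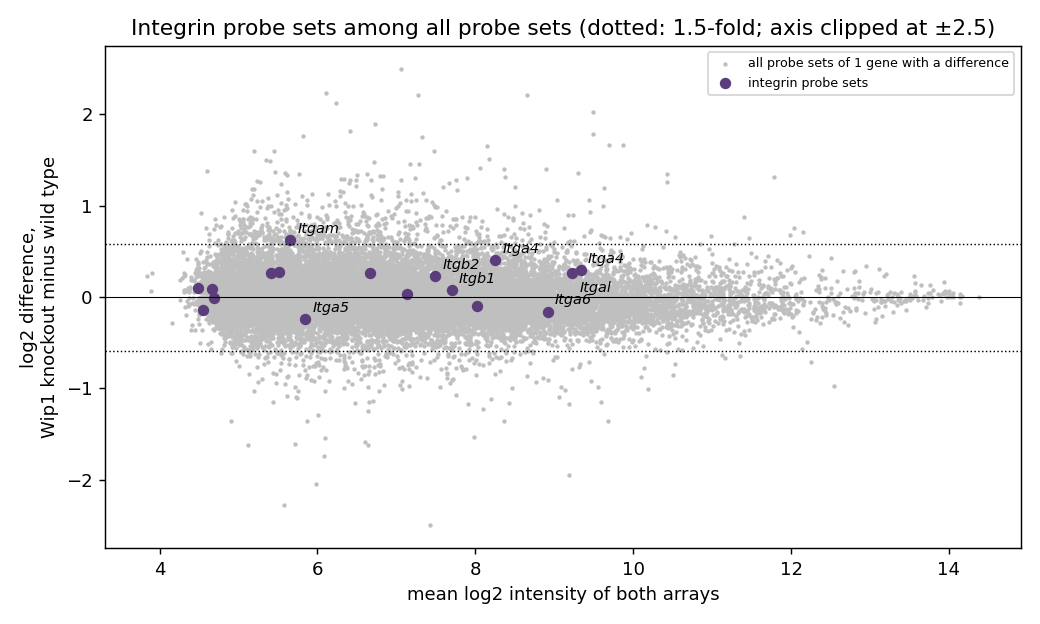
Log2 difference (Wip1 knockout minus wild type) against the mean log2 intensity of both arrays, for all 19778 probe sets of 1 gene with a difference (grey) and the 17 integrin probe sets (purple). Itgam lies at the 1.5-fold line among dim probe sets, and the other integrins lie within the grey cloud.

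The other integrin chains of the mouse were mostly not measured above the floor. Of 14 such genes with a probe set, 6 passed it, while Itga1, Itga7, Itga8, Itga10, Itgae, Itgb4, Itgb6 and Itgb8 did not. Of the 6, 4 were higher and 2 lower, with a median of 0.11, and none reached 1.5-fold by its brightest probe set, against 3.88% of all genes in either direction. Itgb5, which pairs with alphaV to bind vitronectin, was the largest.

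The brightest Itgb5 probe set read 179 in the knockout against 128 in the wild type (0.49). The other 3 read 103, 77.1 and 76.0 on the knockout array, against 30.6, 30.7 and 17.5 for wild type, and their log2 differences were 1.76, 1.34 and at least 1.60. All 4 probe sets of Itgb5 were thus higher in the knockout sample, 3 of them more than 2-fold, a size that 0.536% of all probe sets reached. The IDs of 2 of them end in _x_at, the class whose oligonucleotides can match other transcripts. Itgav, the partner of beta5, read 214 in the knockout against 197 in the wild type (0.14).

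The chains of the platelet integrin went the other way. Itga2b read 203 in the knockout against 277 in the wild type (-0.44), and Itgb3 read 47.4 against 59.3 (-0.31). Megakaryocyte markers, which include both, had 9 members lower and 2 higher, a median of -0.44 (-0.09 over 8 genes with the floor raised to the 75th percentile). Their summed intensity was 2770 in the knockout against 2961 in the wild type, and 1266 against 1672 without Nfe2, the brightest. Platelet factor 4 (Pf4, -0.77), P-selectin (Selp, -0.73) and von Willebrand factor (Vwf, -0.66) were at least 1.5-fold lower, against 1.55% of all genes. The platelet markers Ppbp, Clec1b and Gp6 were under the floor on both arrays. The part of megakaryocytic cells in the Itga2b and Itgb3 differences was not tested.

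By their brightest probe sets, genes that switch integrins on or build the adhesion complex mostly showed small differences, in both directions. Of 28 measured, 25 passed the floor, with 15 higher, 10 lower and a median of 0.08. Lims1, an adaptor that holds integrin-linked kinase in adhesions, was the only one at least 1.5-fold higher, against 2.33% of all genes, and none was at least 1.5-fold lower, against 1.55%. Its 4 probe sets read 922, 90.6, 605 and 47.4 on the knockout array, against 619, 72.4, 425 and 26.0 for wild type, and all were higher in the knockout by 0.34 to 0.88 on the log2 scale.

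The adaptor gene Bcar1 (30.2 in the knockout against 41.6 in the wild type, -0.45) and the parvin gene Parvb (27.5 against 35.0, -0.34) were dim and read lower. Genes of integrin activation went both ways in their brightest probe sets. Rassf5, an activator of LFA-1, read 624 in the knockout against 522 in the wild type (0.27, with 0.34 in its other probe set). Kindlin-3, encoded by Fermt3, read 4205 in the knockout against 4209 in the wild type (0.01). Talin (Tln1) differed by -0.05, Rap1b by -0.15 and the Rap exchange factor gene Rasgrp2 by -0.10. Other probe sets of Tln1, Fermt3 and Rasgrp2 reached 0.61, 0.56 and 0.54.

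Ligands and partners of integrins had 7 members higher and 11 lower, out of 27 measured and 18 above the floor, with a median of -0.04. Icam4, an adhesion molecule of red cell precursors, was the only one at least 1.5-fold lower, against 1.55% of all genes, with 58.5 in the knockout and 88.9 in the wild type (-0.59). None was at least 1.5-fold higher, against 2.33%. Icam1, the main ligand of LFA-1, read 665 in the knockout against 964 in the wild type (-0.52), and Icam2, another ligand of LFA-1, 340 against 421 (-0.29). The receptor chains Itgal and Itgb2 were higher, and the transcripts of these LFA-1 ligands lower, in the knockout sample. Each of these differences was under 1.5-fold, and a link between them was not tested.

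The tetraspanin gene Cd82 had 402 in the knockout against 295 in the wild type (0.46) in its brightest probe set, but its other probe set read 102 against 131 (-0.35). Erythroid markers, which bear on Icam4, had 3 members higher and 6 lower, with a median of -0.14 and a summed intensity of 1324 in the knockout against 1512 in the wild type. Gata1 (-0.84) and Aqp1 (-0.76) were at least 1.5-fold lower, against 1.55% of all genes. The red cell genes Alas2, Rhag and Epb42 were under the floor on both arrays, and the part of erythroid cells in the Icam4 difference was not tested. Vcam1, the ligand of alpha4 beta1, was dim, with 39.9 in the knockout against 41.5 in the wild type, and fibronectin (Fn1) was under the floor. Of 15 stromal markers measured, 9 passed the floor, with 6 higher, 2 lower and a median of 0.07. Pdgfrb, the one gene left with the floor at the 75th percentile, was at least 1.5-fold higher (0.92), against 2.33% of all genes.

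**Figure D4:**
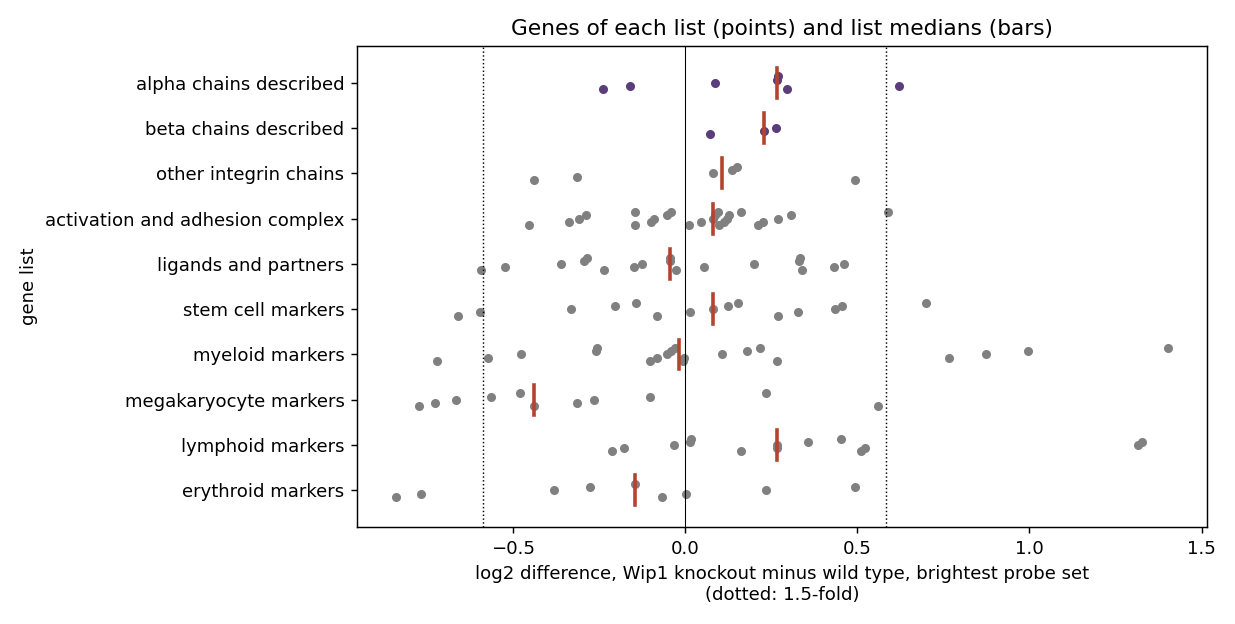
Log2 difference (Wip1 knockout minus wild type) of each gene with a difference, by its brightest probe set, for the integrin chains and the lists set beside them. Bars are list medians: 0.27 for the alpha chains and 0.23 for the beta chains, against -0.44 for megakaryocyte markers, 0.27 for lymphoid markers and -0.02 for myeloid markers.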

How the data were processed

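The deposited table gives a linear-scale intensity for each probe set on each array. The submitters' processing notes name MAS5 alone, with no version, and the sources used here do not state the scaling. A total of 2535 probe sets (5.63%), none of them integrin probe sets, held the same value on both arrays, so how the values were made is not settled. The platform's annotation gave 1 gene for 34945 probe sets, several for 932 and none for 9160. Of the 34945, 34741 were matched to the RefSeq gene table (GRCm38.p6). Intensities were converted to log2 values and centred on the median difference of probe sets with 1 gene, which removed -0.01. Values under an array's median were then set to it. Such values make a difference a lower bound, and none is given where neither array passed the floor or where the floor lay above the brighter value. Genes in lists were represented by their brightest probe set. The size counted was 1.5-fold. Every integrin probe set is reported, and from each list beside them the genes at least 1.5-fold different and the 3 with the largest difference. The marker genes at least 1.5-fold different could also be named. Any gene outside these rules was picked with its values in view. The members and lists were chosen with earlier results of these data known. The procedure was tested on simulated data, with large differences put on bright probe sets only and little noise added. This simulation cannot show how well small differences, or those of dim probe sets, are recovered. Alternatives covered no centring, loess or quantile normalization, other floors, an offset, the choice of probe set and the fold size. Python 3.11.15, pandas 2.3.3 and statsmodels 0.14.6 were used.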

Additional observations from a re-analysis of the deposited data

How the results depend on the processing

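None of the 17 integrin probe sets changed sign under the alternatives of centring, normalization, floor and offset that gave it a value. The count of integrin probe sets at least 1.5-fold higher, and the count of genes, was 1 as reported. Both were 0 after quantile normalization, with a floor at the 75th percentile, with the floor added as an offset and at a fold size of 2, because Itgam then fell short or was not measured. The count of probe sets lower was 0 as reported and 1 with a floor at the 25th percentile or none. That probe set belonged to Itga5 (-0.61 and -0.60), where the second Itgal probe set was 0.55 under both. The median of the integrin genes stayed between 0.16 and 0.25. Raising the floor to the 75th percentile moved the megakaryocyte median to -0.09 over 8 genes and the lymphoid median 0.53 over 5. No paired analysis was possible because each genotype has 1 array, and no replicate could be left out. Signal over background limits Itga2, Itga9, Itga5, Itgam and Itgb7, none of which has a probe set above the 75th percentile. The sums of marker intensities without the brightest gene were chosen after seeing the data.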

Other observations

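Probe sets of the integrin activators differed among themselves. These genes were singled out after their values were seen. Talin (Tln1) ranged from -0.05 in its brightest probe set to 0.61, kindlin-3 (Fermt3) from -0.06 to 0.56, and the Rap exchange factor gene Rasgrp2 from -0.21 to 0.54, as log2 differences of knockout minus wild type. Single genes of the ligand and partner list, also singled out after their values were seen, gave differences of both signs. Cd47, a partner of integrins, was at 0.33 (its 5 probe sets ran from 0.17 to 0.58), the hyaluronan receptor gene Cd44 at 0.33 (its 3 probe sets ran from -0.02 to 0.33), the selectin ligand gene Selplg at 0.34 and the tetraspanin gene Cd9 at -0.36.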
